A study of Mus musculus with 25 samples.

Results

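The Slc25 genes encode the mitochondrial solute carriers, and their transcripts were followed in 3T3-L1 adipocytes under CLA and LA on 1-colour Affymetrix arrays. Members were all probe sets whose gene symbol in the platform annotation is Slc25a followed by a number, except Slc25a20. That gave 91 of 45101 probe sets, which stand for 43 of the 18194 genes with a probe set of 1 symbol. A filter on dim genes kept 41 of the 43, and 14428 genes in all. Slc25a31 and Slc25a41 did not reach the array median on any of the 25 arrays and were not tested. 1 further probe set, annotated to both Slc25a37 and another symbol, was left out.

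3T3-L1 is an established mouse line of preadipocytes that can be differentiated into fat cells. The treated groups received CLA and the control groups LA, and RNA was taken 4, 8, 12 or 24 h later. The labels do not spell out these names, which usually mean conjugated linoleic acid and linoleic acid in this field, and they give neither dose nor isomer. The 4 h groups had 2 CLA and 3 LA arrays, the 8 h groups 3 of each, the 12 h groups 4 of each and the 24 h groups 3 of each. All groups share the same line, and the labels name no genetic change. They call the arrays of a group biological replicates without saying how the cultures were kept apart.

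Most members sit in the inner mitochondrial membrane and move 1 kind of solute, often in exchange for another, so that the matrix can trade nucleotides, phosphate, acids, amino acids, cofactors and iron with the cytosol. In fat cells the citrate carrier brings acetyl units out of the matrix for fat synthesis. The ADP/ATP carriers supply the cytosol with ATP, and in brown fat the related uncoupling proteins turn the proton gradient into heat.

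Of the 8 members that passed a test below, 5 had an entry in RefSeq's promoter table (GRCm38.p6), and the 250 bases before each of these starts are shown because members that changed together can be compared there. They are given 5′ to 3′ on the gene's own strand. Capitals mark the 1 motif match found among 6 motifs searched on both strands.
Slc25a16, fell under CLA, chr10:62920383-62920632, plus strand: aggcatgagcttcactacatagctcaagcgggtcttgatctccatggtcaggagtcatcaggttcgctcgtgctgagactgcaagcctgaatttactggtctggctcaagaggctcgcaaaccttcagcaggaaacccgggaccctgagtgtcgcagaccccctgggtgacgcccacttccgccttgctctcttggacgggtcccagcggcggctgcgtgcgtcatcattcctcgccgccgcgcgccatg
Slc25a29, fell under CLA, chr12:108835877-108836126, minus strand: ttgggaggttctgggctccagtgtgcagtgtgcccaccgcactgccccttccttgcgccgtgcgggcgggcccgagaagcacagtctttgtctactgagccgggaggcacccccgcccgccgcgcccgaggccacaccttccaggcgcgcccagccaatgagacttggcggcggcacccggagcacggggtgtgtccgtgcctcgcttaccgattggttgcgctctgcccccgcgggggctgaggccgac
Slc25a42, fell under CLA, chr8:70212282-70212531, minus strand: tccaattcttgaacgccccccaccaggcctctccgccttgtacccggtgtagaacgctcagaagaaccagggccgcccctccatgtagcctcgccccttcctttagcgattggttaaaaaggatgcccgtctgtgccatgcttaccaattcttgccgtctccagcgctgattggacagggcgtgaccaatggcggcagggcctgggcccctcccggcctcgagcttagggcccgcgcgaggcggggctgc
Slc25a5, fell under CLA, chrX:36795347-36795596, plus strand: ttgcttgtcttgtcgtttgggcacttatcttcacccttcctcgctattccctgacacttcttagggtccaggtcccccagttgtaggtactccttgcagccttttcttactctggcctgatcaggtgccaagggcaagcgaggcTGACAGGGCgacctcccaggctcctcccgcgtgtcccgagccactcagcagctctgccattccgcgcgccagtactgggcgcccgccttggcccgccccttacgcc
Slc25a24, rose under CLA, chr3:109122899-109123148, plus strand: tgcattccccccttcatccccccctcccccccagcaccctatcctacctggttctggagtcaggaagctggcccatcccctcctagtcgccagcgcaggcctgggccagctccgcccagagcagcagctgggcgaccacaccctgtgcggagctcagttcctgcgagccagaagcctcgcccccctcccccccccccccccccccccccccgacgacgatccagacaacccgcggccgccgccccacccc

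These stretches are rich in G and C. Their GC content was 60.8% for Slc25a16, 71.2% for Slc25a29, 63.6% for Slc25a42, 61.6% for Slc25a5 and 72.8% for Slc25a24, against a median of 52.4% over 32851 promoters of the same length. They held 14 to 25 CpG pairs, against a median of 6. Motif counts were made over the table's whole window, which runs from 250 bases before to 50 after the start. The core of the antioxidant element, TGACNNNGC, to which NRF2 binds, was found in 12 of 42 member promoters (28.6%) and in 12.4% of all promoters. In the Slc25a5 promoter it starts at position -106. The E-box CACGTG was in 8 member promoters (19.0%) and in 7.15% of all, and none of those 8 belonged to a member that passed a test. The NRF1 motif was in 2 member promoters (4.76%) and in 4.60% of all. AAGGTCA, a single site of nuclear receptors, was in 1 member promoter (2.38%) and in 4.72% of all. TCAAGGTCA, the longer form bound by the estrogen-related receptors, and TGATGNAA, read by ATF4 with C/EBP, were in 0 member promoters, against 0.423% and 3.97% of all. The 42 promoters belong to 33 of the 43 genes, so some genes count more than once.

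The arrays fell into 5 sets, called A to E, in a clustering that was blind to treatment, and no label names these sets. Set B holds all 8 arrays numbered replicate 2, and set C holds 5 dim arrays. Differences below are CLA minus LA on the log2(intensity + 0.984) scale with their standard errors, from a limma fit over all 14428 genes and 25 arrays with the array set as a term, and the words rose and fell are kept for members whose Benjamini-Hochberg adjusted p over all these genes was under 0.05. At 12 and 24 h every CLA array has an LA partner in its own set. At 8 h only sets A and B hold both treatments, while the third CLA array lies in set E and the third LA array in set C. Without the array-set term limma called 0 members at every time, where the shares of all genes called higher and lower were 0% and 0.00693% (4 h), 0.0208% and 0.00693% (8 h), 0.0277% and 0% (12 h), and 0% each way (24 h). An unadjusted p under 0.05 was reached in that fit by 1 member at 4 h, 6 at 8 h, 4 at 12 h and 1 at 24 h, which is 2.44%, 14.6%, 9.76% and 2.44% of the 41, beside 4.24%, 6.19%, 4.57% and 3.92% of all genes. With the replicate number of the labels as a block in place of the sets, limma likewise called 0 members, where the shares of all genes were 0% and 0.00693% (4 h), 0.132% and 0.0693% (8 h), 0.104% and 0.104% (12 h), and 0.0139% and 0.166% (24 h).

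The family had no call at 4 h, and 2 of its 15 later calls lay above LA, the rest below. 8 of the 41 members passed at 1 time or more. At 4 h 0 members rose and 0 fell, against 0.00693% and 0.0139% of all genes. At 8 h 0 rose and 4 fell (1.25% and 0.561% of all genes). At 12 h 2 rose and 5 fell (2.29% and 2.4%). At 24 h 0 rose and 4 fell (0.88% and 3.72%). In bulk RNA, fewer cells of a type and less RNA per cell cannot be told apart.

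A larger offset of 57.7, which damps the noise of dim values, called more members. With it 0 rose and 0 fell at 4 h (0.0901% and 0.00693% of all genes), 3 rose and 4 fell at 8 h (3.05% and 2.28%), 2 rose and 8 fell at 12 h (4.66% and 4.25%), and 1 rose and 11 fell at 24 h (3.44% and 5.59%).

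The median difference of the 41 members was 0.09 at 4 h, -0.21 at 8 h, -0.14 at 12 h and -0.28 at 24 h, beside 0.01, -0.03, 0.00 and 0.01 over all genes. Members below 0 numbered 14 at 4 h, 28 at 8 h, 24 at 12 h and 28 at 24 h, which is 34.1%, 68.3%, 58.5% and 68.3% of them, beside 48.8%, 52.7%, 49.9% and 48.9% of all genes. Within the sets that hold both treatments the members' median at 24 h was -0.48 in set B, -0.08 in set D and -0.29 in set E. At 12 h it was -0.24 in B, -0.14 in C, -0.03 in D and -0.16 in E. At 8 h it was -0.11 in A and -0.22 in B, and at 4 h 0.06 in B and 0.05 in C. The sign was thus the same in every set of a time, and at 12 and 24 h the size was smallest in set D. With every member probe set tested on its own, 83 of 91 after the filter, 0 rose and 0 fell at 4 h (0.0123% and 0.0215% of all probe sets), 0 and 2 at 8 h (0.443% and 0.0985%), 1 and 5 at 12 h (0.745% and 0.859%), and 0 and 5 at 24 h (0.255% and 1.57%).

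**Figure D1:**
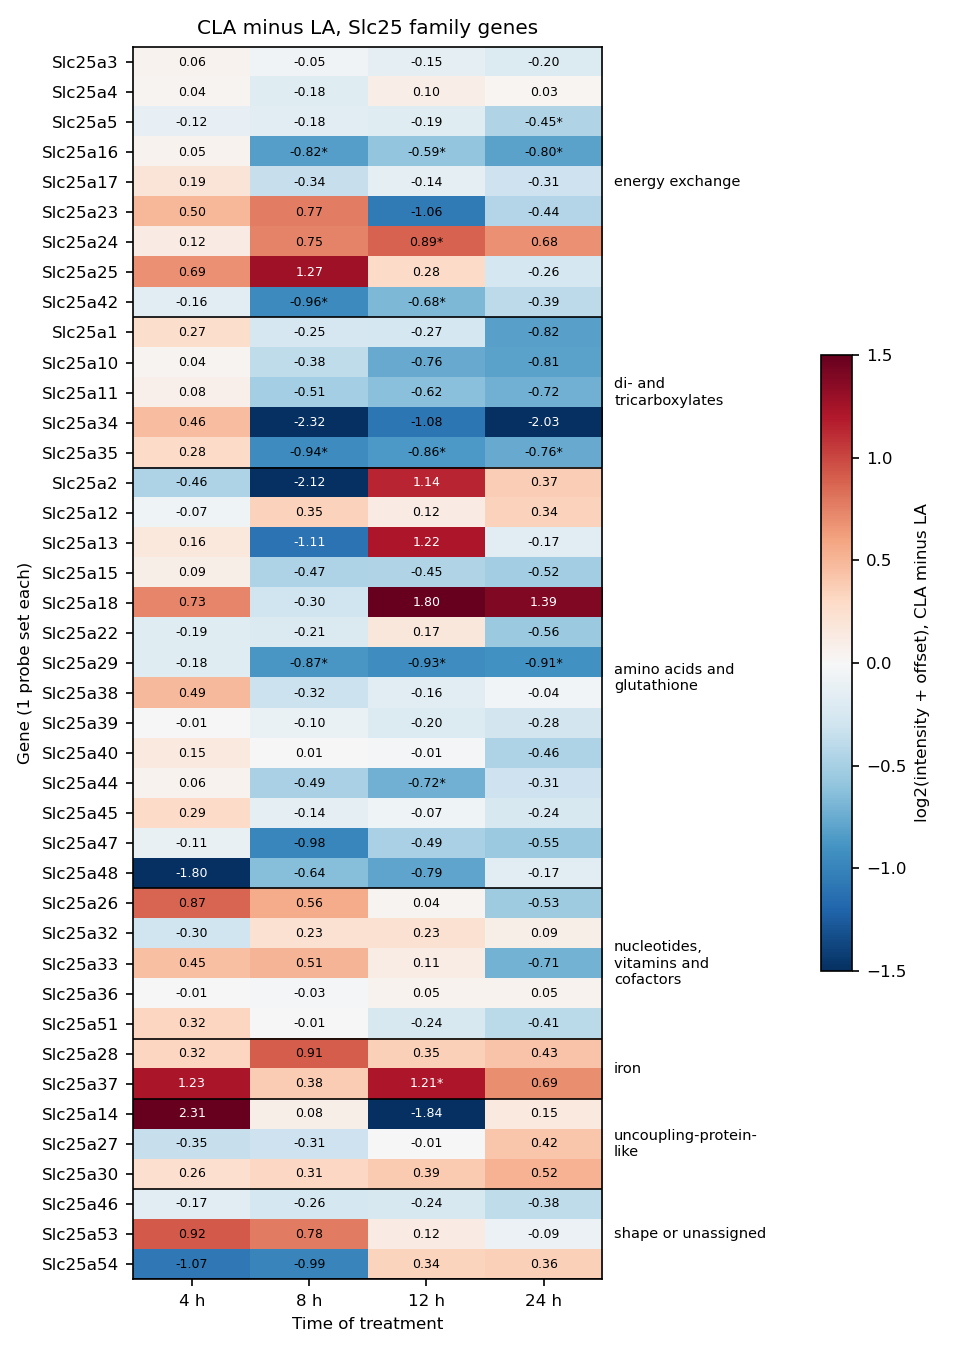
CLA minus LA on the log2(intensity + 0.984) scale for the 41 tested members (down, ordered by role) at 4, 8, 12 and 24 h (across), with an asterisk where the limma adjusted p was under 0.05. The 15 asterisks fall on 8 members, all at 8 h or later, and only Slc25a37 and Slc25a24 at 12 h carry one with a difference above 0.

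Single arrays decided many of these calls. At 8 h the count of 4 was 0 without CLA replicate 1, without CLA replicate 2 or without LA replicate 1, and 1 without LA replicate 2 or 3. At 12 h the count of 7 was 2 without replicate 2 or 4 of either treatment and 3 without replicate 3 of either. At 24 h the count of 4 was 0 without replicate 2 of either treatment, 1 without CLA replicate 3, and 2 without LA replicate 1 or 3. All 15 called differences kept their sign in these runs.

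Among the energy carriers, which exchange adenine nucleotides, phosphate and the precursors of coenzyme A, 9 of 11 genes were tested. Of these 2 fell at 8 h (0.561% of all genes), 1 rose and 2 fell at 12 h (2.29% and 2.4%), and 2 fell at 24 h (3.72%). Their median differences were 0.06, -0.18, -0.15 and -0.31 at 4, 8, 12 and 24 h. The falls were in 2 genes tied to coenzyme A and, at 24 h, in an ADP/ATP carrier.

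Slc25a42 carries coenzyme A into the matrix in exchange for adenine nucleotides. At 8 h its normalised intensity, on the arrays' own scale, was 44.8, 75.8 and 62.1 in the CLA arrays and 101, 131 and 371 in the LA arrays. Every CLA array lay below every LA array, and the highest value was that of the LA array in set C. The difference was -0.96 ± 0.18 (limma adjusted p = 0.0158). At 12 h the values were 52.2, 65.2, 60.1 and 161 under CLA, against 55.3, 123, 95.8 and 338 under LA, replicates 1 to 4 in turn. The groups overlapped, but each CLA array was below the LA array of its set, by 0.08 to 1.07, and the difference was -0.68 ± 0.15 (adjusted p = 0.0187). At 24 h the difference was -0.39 ± 0.17 (adjusted p = 0.24). A second, dim probe set of the gene had a difference of 0.25 ± 0.93 at 8 h, of the opposite sign.

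Slc25a16 is needed for normal coenzyme A levels in mitochondria. At 8 h it read 187, 68.4 and 66.9 under CLA and 285, 155 and 138 under LA. The CLA array of set A, at 187, exceeded LA arrays of other sets, so the groups overlapped, and the difference was -0.82 ± 0.18 (adjusted p = 0.0347). At 12 h it read 126, 69.4, 61.9 and 94.3 under CLA and 154, 149, 93.7 and 124 under LA. All 4 CLA arrays were below their LA partner, with a difference of -0.59 ± 0.15 (adjusted p = 0.0377). At 24 h the CLA arrays read 90.2, 62.9 and 68.8, and the LA arrays 148, 143 and 99.3. Here the groups did not overlap, and the difference was -0.80 ± 0.17 (adjusted p = 0.0171). At 4 h it was 0.05 ± 0.20.

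Slc25a5 is the widely expressed form of the ADP/ATP carrier. At 24 h it read 3899, 3727 and 2907 under CLA and 5236, 5627 and 3681 under LA. Both arrays of set E were the lowest of their group, the groups overlapped through the LA array of that set, and each CLA array lay below its partner by 0.34 to 0.59. The difference was -0.45 ± 0.11 (adjusted p = 0.0235), after -0.12, -0.18 and -0.19 at 4, 8 and 12 h, which did not pass. 8 probe sets measure this gene, and at 24 h all 7 others had a difference below 0, though with each probe set tested on its own none of the 8 passed. Slc25a5 and Slc25a4 are close relatives in sequence, and several of these probe sets are of a kind that can bind related transcripts, so how far each reads the other gene is uncertain.

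Slc25a4, the heart and muscle form of the ADP/ATP carrier, differed by 0.03 ± 0.18 at 24 h (adjusted p = 0.975), from a mean of 2444 under CLA and 2388 under LA. Slc25a3, the carrier that brings phosphate to the ATP synthase, differed by -0.20 ± 0.09 at 24 h (adjusted p = 0.25), with means of 3121 under CLA and 3596 under LA. These 2 belong, with Slc25a5, Slc25a39, Slc25a1 and Slc25a10, to the 6 members with the brightest probe sets. Brightness depends on the probes too and is not a ranking of transcripts.

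Slc25a24, a calcium-regulated carrier that exchanges ATP-Mg for phosphate, was the 1 energy carrier that rose. At 12 h it read 493, 380, 440 and 218 under CLA, against 462, 138, 369 and 63.6 under LA. Each CLA array was above its partner, by 0.09 in set D and by up to 1.76 in set C, and the difference was 0.89 ± 0.22 (adjusted p = 0.0343). At 8 h it read 235, 310 and 444 under CLA and 168, 169 and 68.2 under LA, groups that did not overlap, with a difference of 0.75 ± 0.27 (adjusted p = 0.183). The 24 h values were 519, 287 and 420 under CLA and 344, 142 and 306 under LA, and the difference was 0.68 ± 0.26 (adjusted p = 0.161). With the larger offset Slc25a24 passed at 8, 12 and 24 h (adjusted p = 0.0452, 0.00401 and 0.0274). Its other probe set had the same sign at 12 h.

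Slc25a25, another carrier of the calcium-regulated kind, read 69.6, 207 and 61.4 at 8 h under CLA and 39.9, 46.5 and 147 under LA. The replicate 2 array was the high one under CLA, and the groups overlapped through the LA array of set C. The difference was 1.27 ± 0.34 (adjusted p = 0.0747), and 0.69 with the larger offset (adjusted p = 0.0292). It was 0.69 ± 0.38 at 4 h, 0.28 ± 0.29 at 12 h and -0.26 ± 0.33 at 24 h, none past the threshold. Slc25a23, the third of this kind, was dim, and its 12 h difference of -1.06 ± 0.77 was among the 3 lowest of that time without passing.

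**Figure D2:**
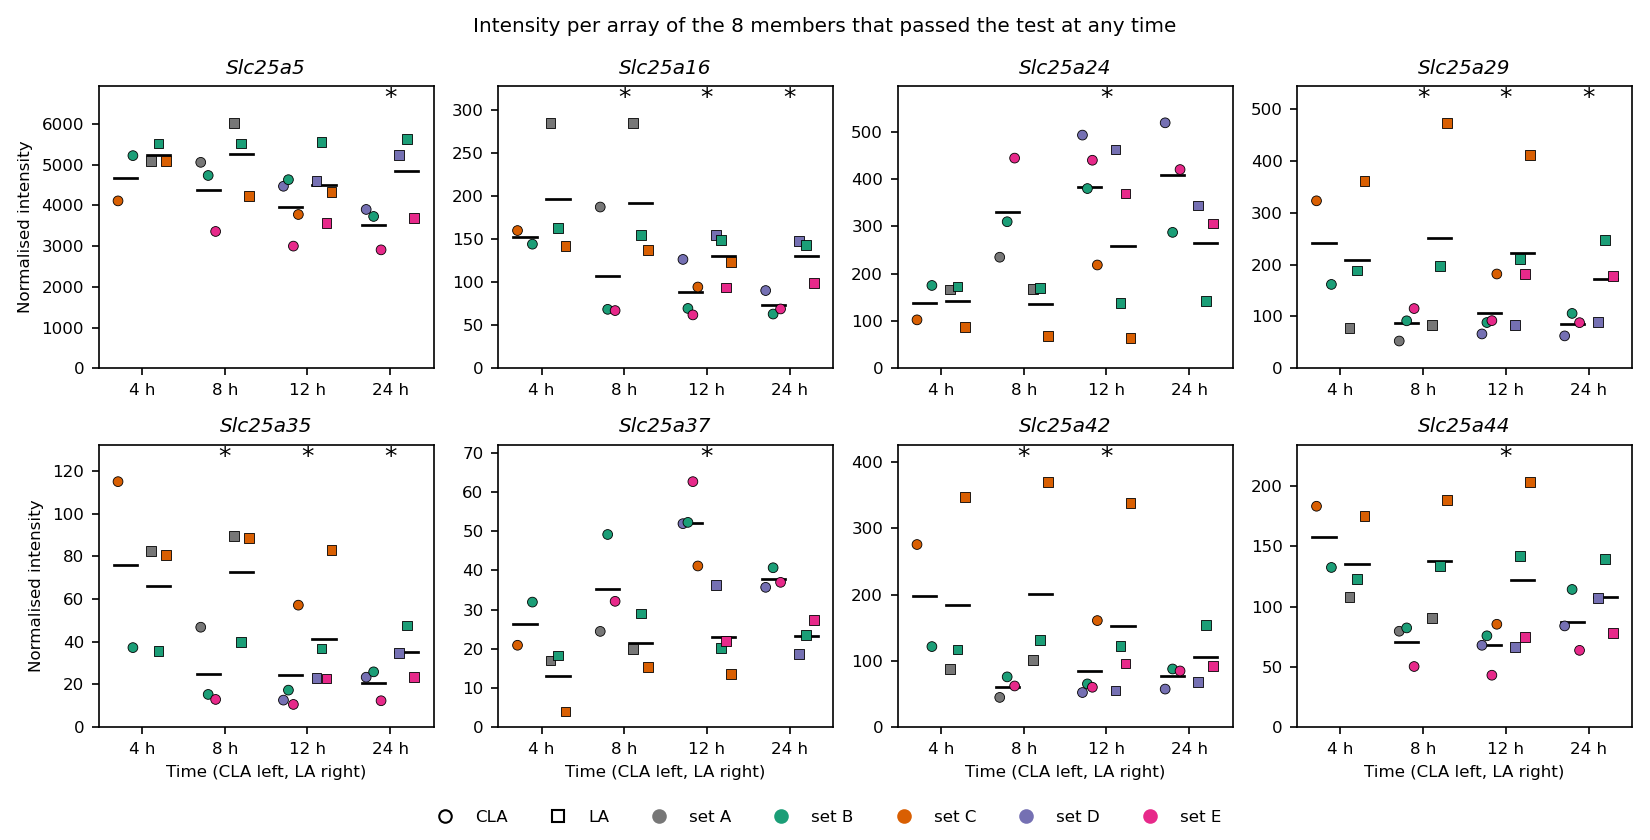
Normalised intensity on every array for the 8 members that passed at any time, on a linear axis from 0, with CLA (circles) left of LA (squares) at each of 4, 8, 12 and 24 h, points coloured by array set, bars at the group mean and an asterisk over the times with a call. The set C points stand high for Slc25a29 and Slc25a42 under both treatments, and within a set most CLA points of the 6 members that fell lie below their LA partner at 12 and 24 h.

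The carriers of di- and tricarboxylates, 5 of them tested, stood below LA from 8 h on. All 5 differences were below 0 at 8, 12 and 24 h, with medians of -0.51, -0.76 and -0.81, while at 4 h all 5 were above 0 with a median of 0.27. Only Slc25a35 passed, at all 3 later times. With the larger offset 1 of the 5 passed at 8 h, 3 at 12 h and 4 at 24 h, all of them below LA. In that fit 2.28%, 4.25% and 5.59% of all genes were called lower at 8, 12 and 24 h.

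Slc25a35 is an orphan carrier that is placed here by likeness to this class. At 8 h it read 46.8, 15.3 and 12.9 under CLA and 89.4, 39.7 and 88.7 under LA. Only the CLA array of set A reached into the LA range, and the difference was -0.94 ± 0.18 (adjusted p = 0.0178). At 12 h it read 12.6, 17.3, 10.6 and 57.1 under CLA and 23.1, 36.8, 22.8 and 83.0 under LA. Each CLA array was below its LA partner, by 0.53 to 1.05, with a difference of -0.86 ± 0.15 (adjusted p = 0.00695). The 24 h values were 23.4, 25.9 and 12.3 under CLA and 34.6, 47.6 and 23.5 under LA, with a difference of -0.76 ± 0.17 (adjusted p = 0.0211). That 24 h call was lost with the larger offset (-0.25, adjusted p = 0.0614), the only one of the 15 calls that was. At 4 h the difference was 0.28 ± 0.20.

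Slc25a1, the citrate carrier, differed by -0.82 ± 0.26 at 24 h (adjusted p = 0.0905), with a mean of 594 under CLA and 1063 under LA. With the larger offset the value was -0.75 (adjusted p = 0.0189). At 12 h its difference was -0.27 ± 0.22, and the within-set values ran from -0.72 to 0.70.

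Slc25a10, the dicarboxylate carrier, which trades malate or succinate for phosphate, read 691, 668 and 245 at 24 h under CLA, against 937, 825 and 783 under LA. The CLA arrays all lay below the LA arrays, and the array of set E was far the lowest. The difference was -0.81 ± 0.25 (adjusted p = 0.0892), and -0.72 with the larger offset (adjusted p = 0.021). At 12 h it read 687, 492, 333 and 792 under CLA and 760, 865, 723 and 1540 under LA, with a difference of -0.76 ± 0.22 (adjusted p = 0.0627).

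Slc25a11, which exchanges 2-oxoglutarate for malate, read 216, 267 and 327 at 24 h under CLA and 347, 477 and 511 under LA. The groups did not overlap, and the difference was -0.72 ± 0.21 (adjusted p = 0.0638). At 12 h it read 253, 214, 319 and 332 under CLA and 239, 492, 487 and 565 under LA. Set D, with 253 under CLA and 239 under LA, went the other way from the other 3 sets, and the difference was -0.62 ± 0.18 (adjusted p = 0.0624). With the larger offset both times passed (adjusted p = 0.012 at 12 h and 0.0139 at 24 h).

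Slc25a34, the closest relative of Slc25a35, had the largest negative difference of any member at 8 h and at 24 h without passing, -2.32 ± 0.97 (adjusted p = 0.257) and -2.03 ± 0.93 (adjusted p = 0.269). The 12 h difference was -1.08 ± 0.80. Its 24 h means were 9.23 under CLA and 52.1 under LA, and with the larger offset the 24 h value was -0.65 (adjusted p = 0.0251). Several of its arrays lie close to the floor of the scale, where small changes of intensity give large differences.

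Of the 14 tested carriers of amino acids and glutathione, 1 fell at 8 h (0.561% of all genes), 2 at 12 h (2.4%) and 1 at 24 h (3.72%), and 0 rose. Their median differences were 0.02, -0.39, -0.11 and -0.26 in the order of the times, with 7, 12, 9 and 11 of the 14 below 0. The calls were in Slc25a29 and Slc25a44.

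Slc25a29 carries basic amino acids such as arginine and lysine. At 8 h it read 52.5, 91.5 and 115 under CLA and 82.8, 197 and 473 under LA. The LA array of set A was the lowest of its group and lay inside the CLA range, and the difference was -0.87 ± 0.19 (adjusted p = 0.0354). At 12 h the CLA arrays read 66.2, 88.2, 91.8 and 182, and the LA arrays 84.0, 211, 182 and 411. Each CLA array was below its LA partner, by 0.34 to 1.25, and the difference was -0.93 ± 0.16 (adjusted p = 0.00695). At 24 h it read 62.4, 106 and 87.9 under CLA and 89.6, 247 and 177 under LA. Again all 3 partners differed in the same direction, with the smallest gap in set D, and the difference was -0.91 ± 0.19 (adjusted p = 0.0122). At 4 h it was -0.18 ± 0.22 (adjusted p = 0.829). 4 further probe sets of the gene had differences below 0 at 8, 12 and 24 h, and 1 of them passed at 12 and at 24 h when every probe set was tested on its own.

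Slc25a44, the carrier of branched-chain amino acids, fell at 12 h. It read 67.9, 75.8, 43.1 and 85.4 under CLA, against 66.8, 142, 74.7 and 204 under LA. In set D the CLA array was 0.02 above its partner and in the other 3 sets it was below, and the difference was -0.72 ± 0.15 (adjusted p = 0.0161). At 8 h it read 79.6, 82.3 and 50.3 under CLA and 90.4, 134 and 188 under LA, groups that did not overlap, with a difference of -0.49 ± 0.18 (adjusted p = 0.202). At 24 h the difference was -0.31 ± 0.18 (adjusted p = 0.422). Of its 2 other probe sets at 12 h, 1 was below 0 (-0.45 ± 0.13) and 1, a dim one, was above (0.44 ± 0.95).

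Slc25a15, the ornithine carrier of the urea cycle, did not pass, yet its CLA arrays lay wholly below its LA arrays at 12 and at 24 h. At 12 h it read 111, 74.2, 92.4 and 110 under CLA and 157, 121, 124 and 125 under LA, with a difference of -0.45 ± 0.14 (adjusted p = 0.085). The 24 h values were 104, 94.6 and 112 under CLA and 139, 148 and 158 under LA, with a difference of -0.52 ± 0.16 (adjusted p = 0.0899). It passed at both times with the larger offset (adjusted p = 0.0418 and 0.0352). Slc25a39, which takes glutathione into mitochondria, differed by -0.28 ± 0.10 at 24 h (adjusted p = 0.133).

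Within this class, several dim carriers had wide differences with wide errors. Slc25a2, a second ornithine carrier, differed by -2.12 ± 0.68 at 8 h (adjusted p = 0.137) on means of 2.32 under CLA and 10.1 under LA. Slc25a18, a glutamate carrier, differed by 1.80 ± 0.62 at 12 h (adjusted p = 0.117) and by 1.39 ± 0.71 at 24 h (adjusted p = 0.343). Slc25a13, the aspartate/glutamate carrier known as citrin, had differences of -1.11 ± 0.76 at 8 h and 1.22 ± 0.63 at 12 h, neither past the threshold. With the larger offset these 5 values lay between -0.19 and 0.21. Slc25a48 differed by -1.80 ± 0.80 at 4 h (adjusted p = 0.471).

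The 2 mitoferrins, which bring iron to the sites of haem and iron-sulphur cluster synthesis, had differences above 0 at all 4 times. Slc25a37, mitoferrin 1, read 51.9, 52.3, 62.7 and 41.1 at 12 h under CLA and 36.3, 20.2, 21.9 and 13.6 under LA. Every CLA array was above every LA array, and the gene rose by 1.21 ± 0.27 (adjusted p = 0.0223). At 24 h it read 35.7, 40.7 and 37.0 under CLA and 18.7, 23.5 and 27.4 under LA, again with no overlap, and the difference was 0.69 ± 0.31 (adjusted p = 0.265). At 4 h the CLA arrays read 20.9 and 31.9 and the LA arrays 17.0, 18.3 and 3.99, with a difference of 1.23 ± 0.36 (adjusted p = 0.289). At 8 h it was 0.38 ± 0.33.

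Slc25a28, mitoferrin 2, read 128, 268 and 123 at 8 h under CLA and 64.1, 107 and 185 under LA. Both CLA arrays with a partner in their set were above it, while the LA array of set C lay among the CLA values. The difference was 0.91 ± 0.26 (adjusted p = 0.092), and 0.61 with the larger offset (adjusted p = 0.0264). At 4, 12 and 24 h the differences were 0.32, 0.35 and 0.43, none past the threshold.

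Of the 5 tested carriers of nucleotides, vitamins and cofactors, 0 passed at any time. Slc25a26, which brings S-adenosylmethionine into mitochondria, read 110 and 80.1 at 4 h under CLA and 42.7, 40.7 and 61.4 under LA. The groups did not overlap, and the difference was 0.87 ± 0.22 (adjusted p = 0.231). At 24 h it read 32.3, 35.3 and 19.6 under CLA and 35.2, 78.5 and 25.1 under LA, with a difference of -0.53 ± 0.19 (adjusted p = 0.145). Of all members it came closest to passing limma's moderated F-test of whether the CLA effect is the same at all times (adjusted p = 0.284). Slc25a33, a carrier of pyrimidine nucleotides, averaged 140 ± 48.2 under CLA and 229 ± 80.7 under LA at 24 h (SD, n = 3 each). Its difference was -0.71 ± 0.25 (limma adjusted p = 0.125), after 0.45 ± 0.28 at 4 h. Slc25a51, the carrier of NAD+, differed by -0.41 ± 0.15 at 24 h (adjusted p = 0.145), after 0.32 ± 0.17 at 4 h. Both passed at 24 h with the larger offset (adjusted p = 0.0423 and 0.0483).

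The 3 tested carriers that resemble uncoupling proteins also had 0 calls. Slc25a14 differed by 2.31 at 4 h (adjusted p = 0.454) and by -1.84 ± 0.75 at 12 h (adjusted p = 0.193), the largest positive and the largest negative difference of those times, on a dim probe set that read 0 on 3 arrays. The 3 members that shape mitochondria or have no assigned solute had 0 calls. Slc25a53 differed by 0.92 ± 0.57 at 4 h and 0.78 ± 0.51 at 8 h, and Slc25a54 by -1.07 ± 1.09 at 4 h.

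**Figure D3:**
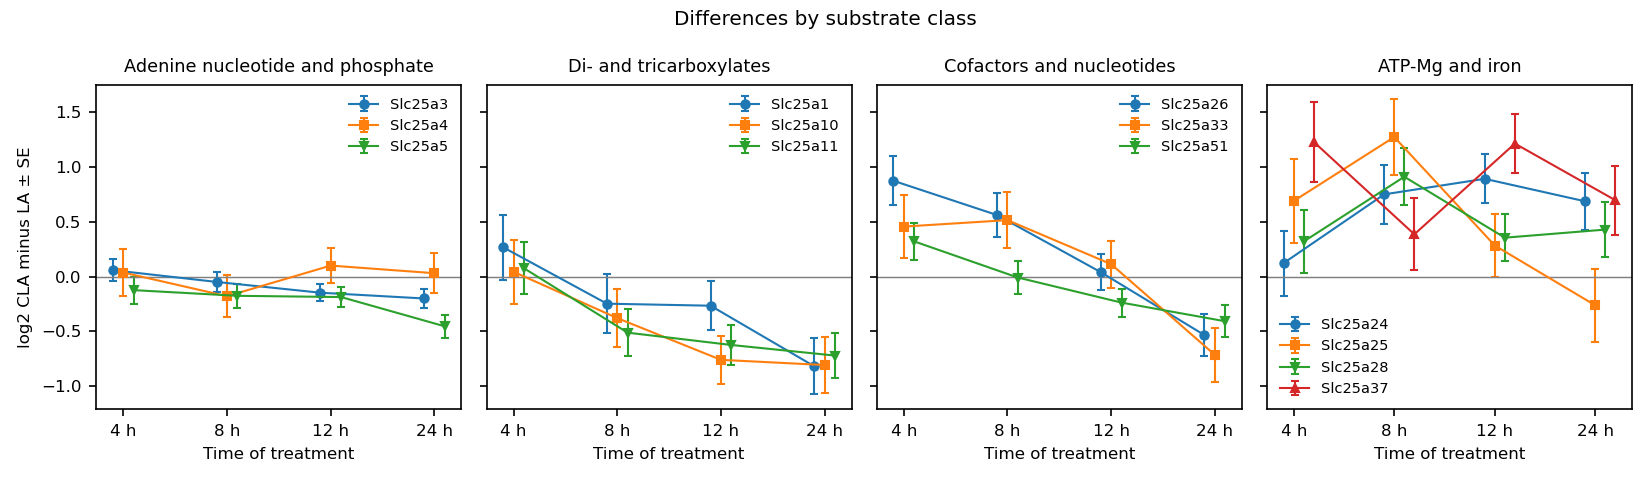
CLA minus LA on the log2(intensity + 0.984) scale with its standard error (bars) at 4, 8, 12 and 24 h, evenly spaced, in panels of like solutes, for Slc25a3, Slc25a4, Slc25a5, Slc25a1, Slc25a10, Slc25a11, Slc25a26, Slc25a33, Slc25a51, Slc25a24, Slc25a25, Slc25a28 and Slc25a37. Slc25a1, Slc25a10 and Slc25a11 lie below 0 from 8 h on, Slc25a37 lies above 0 at every time, and of the members drawn here Slc25a5 passed the test at 24 h and Slc25a24 and Slc25a37 at 12 h.

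Whether the effect of CLA differed between times was tested directly. By the moderated F-test 0 members passed after adjustment, against 0.0139% of all genes. An unadjusted p under 0.05 in that F-test was reached by 9 of the 41 members and by 1337 of all 14428 genes (9.27%), so by a larger share of the members. Those 9 were Slc25a2, Slc25a14, Slc25a16, Slc25a25, Slc25a26, Slc25a33, Slc25a35, Slc25a42 and Slc25a51. No member is therefore shown to respond at some times and not at others. In the LA arrays alone 0 members, and 0 genes in all, changed over time after adjustment.

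Groups without overlap were counted as a description that does not use the array sets. At 4 h 4 members had every CLA array above every LA array and 1 below, where 5.67% and 5.38% of all genes did. At 8 h 1 was above and 7 below (5.07% and 7.15% of all genes), at 12 h 1 and 1 (1.28% and 1.16%), and at 24 h 2 and 5 (5.22% and 7.05%). The 7 at 8 h were Slc25a1, Slc25a2, Slc25a3, Slc25a10, Slc25a11, Slc25a42 and Slc25a44. At 24 h the 5 were Slc25a10, Slc25a11, Slc25a15, Slc25a16 and Slc25a51.

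The authors' deposited tables give 1 ratio and p-value per probe set and time with the arrays of a group combined. The direction of that ratio is not stated. Its logarithm correlated with CLA minus LA across 10946 probe sets, which are not independent replicates, at r = 0.772, 0.847, 0.919 and 0.955 at 4, 8, 12 and 24 h, so ratios above 1 were taken to mean a higher level under CLA. In the authors' deposited tables the members' representative probe sets with p under 0.05 numbered 2 above 1 and 0 below for 4 h. The authors' deposited tables held 1 above and 6 below for 8 h, 2 above and 6 below for 12 h, and 0 above and 7 below for 24 h. Over all 45101 probe sets and both directions, 0.869%, 4.39%, 2.72% and 2.92% had p under 0.05 in the authors' deposited tables of 4, 8, 12 and 24 h. These shares include dim probe sets and those that represent no gene, so they are no like-for-like base for the 41 members. The median ratio of the 41 members in the authors' deposited tables was 1.08, 0.907, 0.918 and 0.876.

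In the authors' deposited tables Slc25a10 had ratios of 0.602, 0.532 and 0.581 at 8, 12 and 24 h (p = 0.00292, 0.00482 and 0.00743). Slc25a11 had 0.618, 0.575 and 0.597 in the authors' deposited tables (p = 0.0141, 0.00446 and 0.0111), and Slc25a34 had 0.362, 0.276 and 0.18 (p = 0.0439, 0.0205 and 0.00406). These 3 dicarboxylate-class members, which missed the threshold in the fit above, were thus under the authors' 0.05 at 8, 12 and 24 h. The same held for Slc25a15 of the amino acid class, with ratios of 0.729, 0.777 and 0.704 in the authors' deposited tables (p = 0.0111, 0.0338 and 0.00492). Slc25a37 at 12 h had a ratio of 2.29 in the authors' deposited table (p = 0.015), and Slc25a26 at 4 h had 2.37 (p = 0.00054). A second probe set of Slc25a26 had 1.28 at 4 h in the authors' deposited table (p = 0.598). The representative probe sets of Slc25a29 and Slc25a35, which carry 6 of the 15 calls above, had no p under 0.05 in the authors' deposited tables, while a dimmer probe set of Slc25a29 had p = 0.0499 at 8 h.

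**Figure D4:**
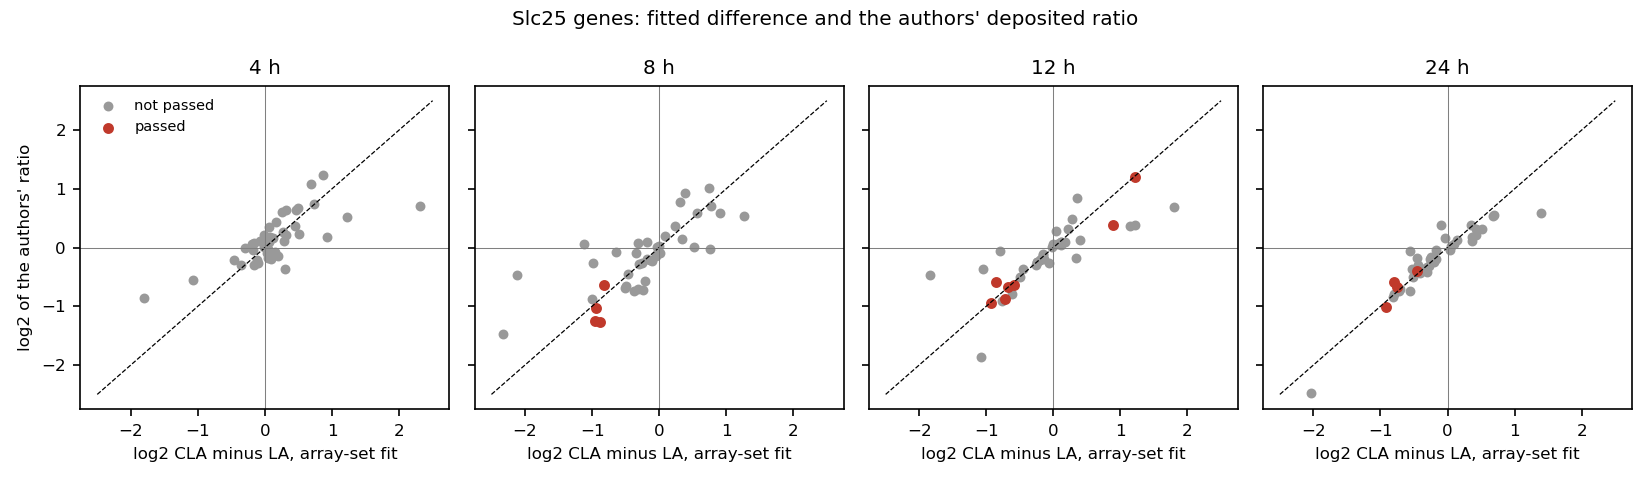
Log2 of the ratio in the authors' deposited table (vertical) against CLA minus LA from the fit (horizontal, log2 scale) for the 41 members at 4, 8, 12 and 24 h, 1 panel per time. Points of members that passed are red, the dashed line marks equal values, and at 24 h 28 of the 41 members lie left of 0.

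Other genes of mitochondrial transport, from a list of 24 of which 21 were tested, had no call above LA. 0 of them fell at 4 h, 1 at 8 h, 1 at 12 h and 5 at 24 h, beside 0.0139%, 0.561%, 2.4% and 3.72% of all genes. Their median differences were 0.00, -0.24, -0.12 and -0.36. Ppif, cyclophilin D, which regulates the permeability transition pore, fell by 0.71 ± 0.11 at 8 h (adjusted p = 0.00651), by 0.53 ± 0.09 at 12 h (adjusted p = 0.00632) and by 1.09 ± 0.10 at 24 h (adjusted p = 0.000117). At 24 h Mpc1, a subunit of the pyruvate carrier, fell by 0.77 ± 0.15 (adjusted p = 0.0111), and Slc25a20, the carnitine-acylcarnitine carrier of fatty acid oxidation, fell by 0.80 ± 0.20 (adjusted p = 0.0347). The import components Timm23 and Timm9 fell by 0.37 ± 0.10 and 0.69 ± 0.19 at 24 h (adjusted p = 0.0476 and 0.0478). Ucp1, the uncoupling protein of brown fat, did not reach the array median on any array, and Ucp3 differed by -0.92 ± 0.35 at 8 h (adjusted p = 0.205). Without the array-set term none of these 7 calls was made.

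The adipocyte label held on the arrays, and most of the adipocyte markers fell at 24 h. All 10 measured adipocyte markers, Adipoq, Fabp4, Cidec and Pparg among them, were above the array median on all 25 arrays. Of the 10, 0 fell at 4 h, 2 at 8 h, 5 at 12 h and 8 at 24 h, beside 0.0139%, 0.561%, 2.4% and 3.72% of all genes. Without the array-set term limma made none of these calls, and the lowest adjusted p among them was 0.247, for Retn at 24 h. The summed level of the 10 at 24 h was 17133 to 27474 in the CLA arrays and 30708 to 44592 in the LA arrays. Of 9 measured preadipocyte and fibroblast markers 0 passed at any time, and their summed level at 24 h was 23691 to 33304 under CLA and 21941 to 30689 under LA. Of 6 macrophage markers 4 were tested and 0 passed, and the 6 summed to 142 to 205 under CLA and 109 to 160 under LA at 24 h. Adgre1 and Csf1r were above the array median on all 25 arrays, Cd68 on 15 and Lyz2 on 11. Ptprc and Itgam were above it on 1 array each. The part of these shifts in the members' differences was not tested.

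Array quality varied within the groups. Mean intensities lay between 72.6 and 149.2, with 72.4% to 80.7% of an array's probe sets above 0. The ratio of 3′ to 5′ actin probe sets, which rises when RNA is degraded, stood at 8.11 on LA 4 h replicate 1 and at 5.67 on LA 12 h replicate 1, against 1.43 to 3.32 elsewhere. Without these 2 arrays 14 of the 15 member calls remained and all 15 kept their sign.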

How the data were processed

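The deposited value table holds 1 linear intensity per probe set and array, made by the authors from 1-colour Affymetrix arrays of Trizol-extracted RNA, per the labels' protocols. The summary method was not given in the sources used here, and 21.6% of the values lie at or below 0. Per the file headers, the authors' deposited table of each time gives a ratio, its log10, a fold change and a p-value with the arrays of a group combined. The 8 columns of group intensities in these tables, which name no group, were not used.

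Negative values were set to 0 and 0.984, the table's 25th percentile, was added before log2 and quantile normalisation. Printed intensities are these values turned back to the linear scale. Probe sets were named through the platform annotation (34958 with 1 symbol, 932 with several, 9211 with none), and the probe set with the highest mean stands for its gene. Genes above the array median on at least 2 arrays were kept. The model was limma 3.58.1 in R 4.3.3 (lmFit, eBayes), with 8 group means and 5 array sets over 25 arrays, which leaves 13 residual degrees of freedom, and Benjamini-Hochberg adjustment over 14428 genes at 0.05. It was tested on simulated data that took the array sets as given. That simulation therefore cannot show how the calls behave when the sets are found from the same values. The array sets come from Ward clustering of the arrays' correlations over the tested probe sets, and other linkages gave other sets. For arrays, their number limits the precision.

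Members, gene lists, array sets and tests were chosen with earlier results of these data known. Named members were those past the threshold at any time, the 6 with the brightest probe sets and, at each time, the 3 with the largest positive and the 3 with the largest negative differences, with values on every array for the 14 of smallest p. Replicate numbers were checked as pairs through the correlation of deviations from the group means in same-numbered arrays. It was 0.16 to 0.56 at 12 h and 0.26 to 0.34 at 24 h, so the numbers pair the arrays there. At 8 h it was 0.07 to 0.31, and replicates 1 and 2 shared an array set while replicate 3 did not. At 4 h it was -0.24 and 0.33, and the arrays numbered 1 lay in different sets. The numbers thus do not pair all arrays at 4 and 8 h. Alternatives were no array-set term, the replicate block, a larger offset of 57.7 (the 75th percentile), other normalisations, no filter, each probe set on its own, and arrays left out. Promoter sequences are RefSeq's, and comparisons of protein sequences were not run.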

Additional observations from a re-analysis of the deposited data

Results flagged for a closer look

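In groups of 4 arrays, the gap between the lowest or highest array and its nearest neighbour was set against the group's whole range. This was done on the log2 scale of the fit for 48 combinations of member and treatment group. Of these, 2 exceeded Dixon's critical value of 0.829, where chance alone gives about 1 in 20. The readings below are on the linear scale. Slc25a13, the aspartate/glutamate carrier, gave 0.94 in the LA arrays at 12 h, because replicate 4 read 0 while the other 3 read 19.1 to 23.4. Slc25a23, a calcium-regulated ATP-Mg carrier, gave 0.829, just above that value, in the CLA arrays at 12 h, where replicate 1 read 0 and the other 3 read 2.92 to 4.20. Both flags rest on a reading of 0, and the log2 scale stretches values near 0. Both members are dim and neither passed the test at any time.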

How the results depend on the processing

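All 15 called differences kept their sign under every alternative run, and all 15 lost their call under at least 1. No call remained without the array-set term (0 members at 8, 12 and 24 h), with the replicate block in place of the sets (0, 0 and 0, adjusted p = 0.141 to 0.845), with the replicate block on the arrays of 1 time only, an alternative chosen after seeing the data (0, 0 and 0, adjusted p = 0.305 to 0.676), or on the values as deposited (0, 0 and 0). The larger offset gave 7 members at 8 h, 10 at 12 h and 12 at 24 h and kept 14 of the 15 calls. Centring each array on its median gave 2 at 8 h (1 higher, 1 lower) and 2 at 24 h, and kept 8 of 15. Testing every probe set on its own gave 2 at 8 h and kept 10 of 15. Without the dim arrays of set C, 0 members passed at 8 h and 1 at 12 h, and 5 of 15 calls were kept. Dropping the filter kept all 15. With single arrays left out, the count was 0 at 4 h in each run, 0 to 4 at 8 h, 2 to 8 at 12 h and 0 to 6 at 24 h, and the members' median ran from 0.05 to 0.21 at 4 h, -0.26 to -0.09 at 8 h, -0.16 to -0.10 at 12 h and -0.33 to -0.20 at 24 h. The cause of these losses was not tested. The median standard error of a difference at 24 h was 0.30 with the array-set term and 0.60 without it. The sets were found from these same values, so the smaller error is no independent evidence on the calls. Dim members limit what the scale can show, since values near 0 stretch on a log scale.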
